A study of Danio rerio with 2 samples.

Results

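Integrins are cell surface receptors built from an alpha and a beta subunit that join the matrix, or proteins on other cells, to the cytoskeleton. The 33 zebrafish genes described here are the integrin subunits among 36355 features of a single-cell RNA sequencing study of the adult jaw joint, 21 alpha and 12 beta genes. They were chosen by symbol alone, with proteins that bind integrins (*itgb1bp*) and the *itgbl* genes left out, and the rule itself uses no measured value. The alpha chain largely sets the ligand. In vertebrates the alpha1, alpha2, alpha10 and alpha11 chains bind collagens with the beta1 chain, alpha3 and alpha6 bind laminins, alpha5 binds fibronectin, alpha4 and alpha9 bind fibronectin variants, tenascin or surface proteins, and alphav pairs with several beta chains that read the RGD motif of matrix proteins. The beta4 chain pairs with alpha6 in hemidesmosomes, the junctions that hold basal epidermal cells to the basement membrane, and the beta2 and beta7 chains are known from leukocytes of mammals.

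The study sorted cells from 50 pooled, dissected jaw joints of 3-month-old zebrafish that carried both the *sox10*:DsRed and the *trps1*:eGFP transgene. The *sox10*:DsRed-enriched library holds cells sorted as DsRed-positive, with or without GFP, and the *trps1*:eGFP-enriched library holds cells sorted as GFP-positive. Each transgene reports the regulatory sequence that drives it and not a single cell type, and the joints were digested with trypsin and collagenase before the sort. Each sort gave 1 library, so there was no replicate and no test, and the intervals below are exact 95% intervals for counting error only.

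The values the authors deposited are counts of UMIs, the molecular tags that mark single captured transcripts, for every feature and barcode. Libraries held 462 and 4876 barcodes with 1073482 and 17424489 UMIs, and 16 barcode sequences occurred in both. After limits on genes and mitochondrial RNA, 242 and 3919 cells were kept, with medians of 2587.5 and 3648 UMIs. Clustering without the integrin genes gave 16 populations. Names ending in "-like" rest on marker lists, of which 7 of 13 genes were raised in the epithelial-like cells, 14 of 14 in the chondrocyte-like cells, 7 of 8 in both the superficial chondrocyte-like and the osteoblast-like cells, 6 of 7 in the pre-osteoblast-like cells, 5 of 7 in the ligamentocyte-like cells and 3 of 5 in the dermal fibroblast-like cells. A further 7 clusters matched no list and are called by a leading gene (*glis1b*, *hspb1*, *pck1*, *fgl1*, *ctslb*, *coch* and *ccl19a.1*). Most populations came mainly from 1 library. Of 157 chondrocyte-like cells all but 3 belonged to the *sox10*:DsRed-enriched library, while the 105 superficial chondrocyte-like cells all came from the *trps1*:eGFP-enriched library, so that for these 2 populations the sort and the cell type cannot be told apart.

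Levels are given as CPM, a gene's UMIs scaled to 1000000 UMIs of the population, and as the percentage of cells in which it was found (1 UMI or more). UMIs were read from transcript 3' ends, so no length was divided out, and each gene is mainly compared across populations. Where genes stand side by side, as in the shares of paralogs, any difference in how well each gene is captured was not corrected. A gene is said to be called in a population when 5% or more of the cells held it and its CPM was 2-fold that of the remaining kept cells or more, with 10 CPM added on either side. Integrin genes held 16358 UMIs in the kept cells, and 24 of the 33 had at least 10 UMIs. Of the 33, 20 were called somewhere, 11 of them in a single population, in 29 pairs of gene and population. Over all 15367 features with at least 10 UMIs, the same rule called from 0.416% (*hspb1* cluster) to 8.58% (glia-like cells) in a population. The share of all features called in at least 1 population was not computed, so these totals are not read as high or low. Summed over all 33 genes, the level was 3936 CPM in epithelial-like cells (3853 to 4021), 1119 CPM in superficial chondrocyte-like cells (1013 to 1233) and between 297 and 635 CPM in the other 14 populations. In every population but the endothelial-like cells the median log2 fold of the 24 tested integrin genes lay below that of all tested features, for example -0.43 against -0.19 in osteoblast-like cells. Over all kept cells of a library the level of *itgb4* was 7.23 CPM in the *sox10*:DsRed-enriched and 333 CPM in the *trps1*:eGFP-enriched library. That of *itga6b* was 13.3 and 258 CPM. Of the 366 epithelial-like cells, 365 came from the *trps1*:eGFP-enriched library. Outside these cells *itgb4* was at 7.31 and 33.5 CPM and *itga6b* at 13.4 and 83.8 CPM. Over all kept cells of a library the order was the opposite for *itga10*, at 68.7 and 36.4 CPM, and for *itgb8*, at 25.3 and 4.98 CPM.

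**Figure D1:**
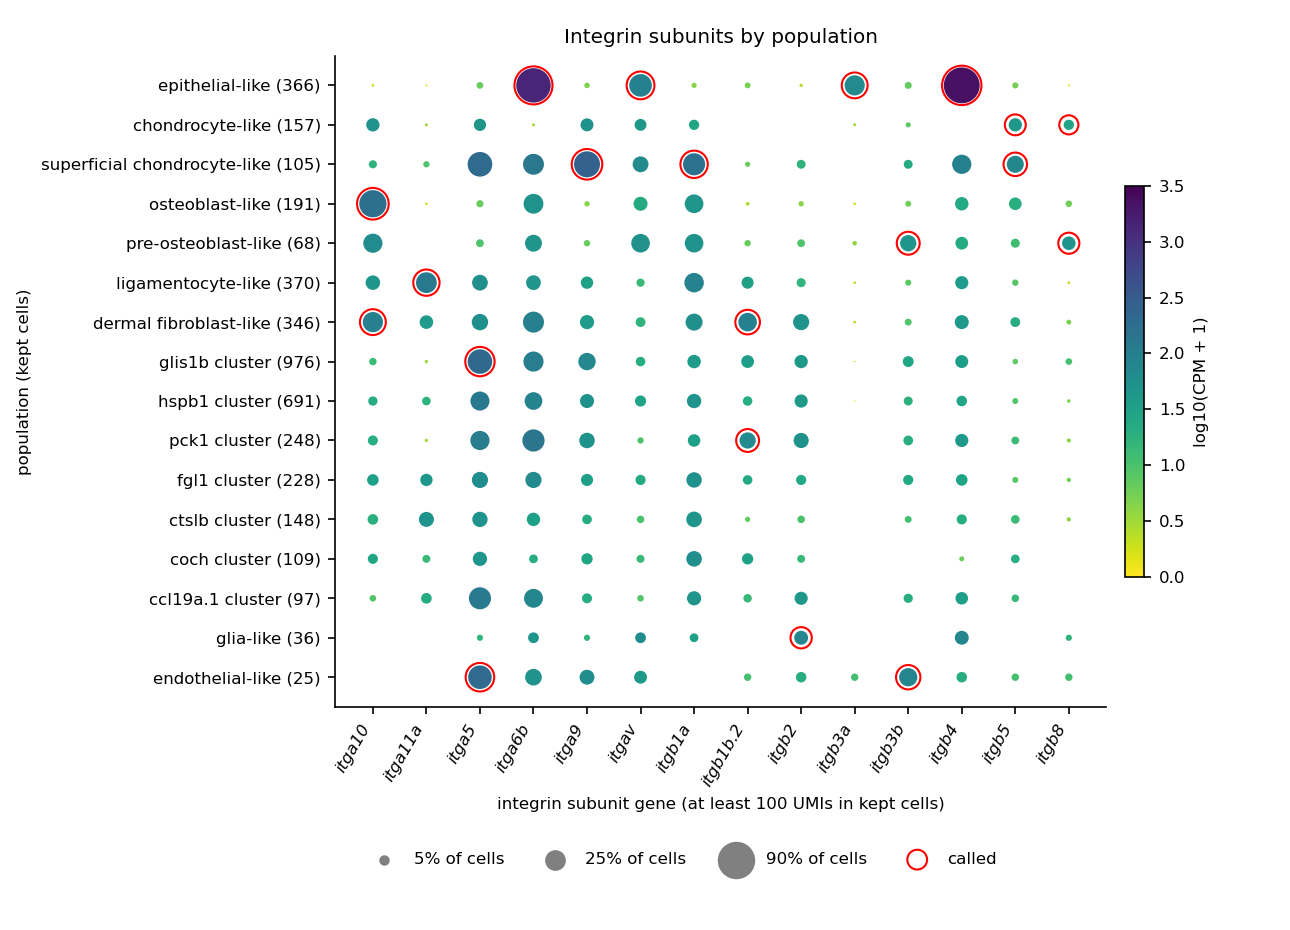
Dot plot of the 14 integrin subunit genes with at least 100 UMIs (columns) in the 16 populations (rows, kept cells in brackets). The area of a dot is the share of cells with a UMI, its colour is log10(CPM + 1), and a red ring marks a called pair, such as *itgb4* and *itga6b* in epithelial-like cells (2263 and 1379 CPM), *itga10* in osteoblast-like cells (170.4 CPM) and *itga11a* in ligamentocyte-like cells (122 CPM).

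Epithelial-like cells carried the genes of both chains of the hemidesmosome integrin, and the RGD-type subunit genes *itgav*, *itgb3a* and *itgb6*. In these 366 cells *itga5*, *itga9*, *itga10* and *itga11a* had a UMI in only 12, 8, 2 and 1. The genes *itgb4* and *itga6b*, which encode the beta4 and alpha6 chains, were the most widely detected, in 340 and 313 of 366 cells. The genes *itgb3a*, *itgav*, *itgb6*, *itga3a* and *itgb1b.1* were also called, which makes 7 integrin genes, 3 alpha and 4 beta. Over all 15367 features with at least 10 UMIs, the same rule called 4.66% in these cells.

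The level of *itgb4* was 2263 CPM (2200 to 2328) in epithelial-like cells, against 32.1 CPM in all other cells. A cell held a median of 10 *itgb4* UMIs, and 302 cells had 3 or more. Its partner *itga6b* reached 1379 CPM (1330 to 1429), a median of 6 UMIs per cell. This level was 10.2 times that of the *pck1* cluster, the next in order at 135 CPM (ratio interval 8.53 to 12.3). Both genes were found in the same cells, 309 of 366 (84.4%, interval 80.3 to 88.0), although the cells with *itga6b* were deeper (median 6531 against 2630 UMIs). With every cell thinned to 1000 UMIs, both were still found together in 51.9% of cells (46.7 to 57.1). Much of this overlap follows from how widely each was found, since *itgb4* was then in 77.6% of all 366 cells. It was in 86.8% of the thinned cells with *itga6b* and in 63.9% of those without. The paralogs *itga6a* and *itga6l* had 4 and 3 UMIs in all kept cells, so nearly every alpha6 UMI came from *itga6b*.

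The gene *itgav*, whose alphav chain pairs with beta3, beta5, beta6 and beta8, stood at 92.2 CPM in the epithelial-like cells (79.8 to 106). Among its possible partners there, *itgb3a* was at 69.0 CPM (58.4 to 81.0), in 29.2% of cells. The beta6 gene *itgb6*, known in mammals for epithelia and for releasing active TGF-beta, was at 33.8 CPM (26.5 to 42.5), in 16.4% of cells. Levels of *itgb5* and *itgb8* there were 4.6 and 0.46 CPM. The laminin receptor gene *itga3a* was at 21.8 CPM (15.99 to 28.9) and the beta1 gene *itgb1b.1* at 24.5 CPM (18.4 to 32.1). For *itgav* the intervals of 4 populations overlapped that of the epithelial-like cells. Among them were the superficial chondrocyte-like cells (66.1 CPM, ratio of epithelial to superficial 1.39, interval 0.9098 to 2.23). In cells with *itgav*, *itgb3a* was found in 34.1%, against 26.4% of epithelial-like cells without it, and the former were deeper (median 7110 against 5059 UMIs).

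Of the hemidesmosome genes listed beside the integrins, 5 of 9 tested were called in epithelial-like cells. They include *col17a1b*, which encodes the transmembrane collagen of hemidesmosomes, at 2205 CPM against 17.2 CPM in other cells, and the basal keratin gene *krt5* at 29429 CPM against 139 CPM. Since *krt5* and *col17a1b* are also among the markers that name these cells, their level is not an independent result. Of the activators that bind integrin tails, *fermt1*, the epidermal kindlin gene, was called at 23.6 CPM against 0.678 CPM, 1 of 5 tested. In the adhesion complex 4 of 21 genes were called, among them *src* at 25.01 CPM against 1.42 CPM.

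In the other 3554 cells of the *trps1*:eGFP-enriched library, epithelial genes were found at a low level. For 6 epithelial markers (*epcam*, *krt5*, *cldni*, *cdh1*, *col17a1b* and *tp63*) that level was between 0.494% and 1.14% of the level in epithelial-like cells. The marker *krt91* was not among them, so the range is not that of all 7 raised markers. Listed markers that were not raised in epithelial-like cells, *krt4* among them, were also left out. The outer layer list of 8 genes, which holds *krt4*, summed to 162 CPM in epithelial-like cells and to 4415 CPM in superficial chondrocyte-like cells. In chondrocyte-like cells this list summed to 195 CPM, all of it *krt4*, so *krt4* went the other way. Summed over 9 basal keratinocyte markers, *krt91* included, the level was 53596 CPM in epithelial-like cells. In the other populations this sum ran from 124 CPM in glia-like cells to 3576 CPM in the *pck1* cluster. Free RNA of lysed cells gives UMIs in cells that do not express a gene. By the same measure *itgb3a* stood at 0.937% (0.428 to 1.78) and *itgb4* at 1.48% (1.35 to 1.62), whereas *itga6b* stood at 6.07% (5.73 to 6.43) and *itgav* at 22.8% (20.2 to 25.5). For *itgb3a* the interval thus lies across the range of the 6 markers without *krt91*. For *itgb4* it lies somewhat above that range of 6 markers, and for *itga6b* and *itgav* far above it. In the *pck1* cluster, *krt5*, *cldni*, *col17a1b* and *tp63* gave 184, 80.0, 25.9 and 2.16 CPM of the sum of 3576 CPM, and *krt91* gave the rest. In epithelial-like cells *krt5*, *cldni*, *col17a1b* and *tp63* gave 29429, 6186, 2205 and 194 of 53596 CPM, so *krt91* gave at most the rest. A range with *krt91* would thus reach higher. In the *pck1* cluster *itga6b* stood at 9.80% of its epithelial level (8.16 to 11.7). By these values *krt91* stood at a higher percentage there, so *itga6b* was not above every raised marker. Over all other cells of the library the place of these integrin genes against all 7 markers was not tested. The part of free RNA in the *itgb4* of other cells was not tested. In the *sox10*:DsRed-enriched library *itgb4* had 6 UMIs in 241 other cells, and 5 of these lay in glia-like cells.

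**Figure D2:**
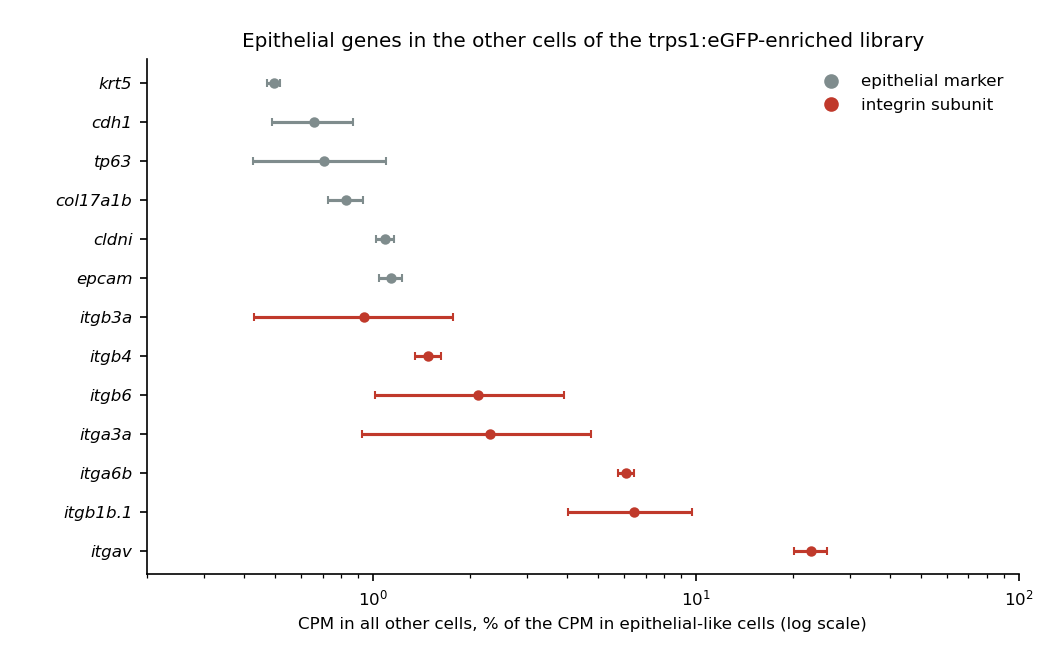
Level of epithelial genes in all other cells of the *trps1*:eGFP-enriched library (3554 cells), as a percentage of the level in epithelial-like cells, on a log axis. Points are ratios of CPM, and bars are exact 95% Poisson intervals of the count in the other cells. Grey points are 6 of the 7 raised epithelial markers, without *krt91*, and red points are integrin genes. Listed markers that were not raised, such as *krt4*, are not shown. The 6 markers shown lie between 0.494% and 1.14%, with *itgb4* at 1.48%, *itga6b* at 6.07% and *itgav* at 22.8%. A range with *krt91*, which is not shown, would reach higher, and in the *pck1* cluster *krt91* stood above *itga6b*.

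Chondrocyte-like cells, which express the cartilage collagen gene *col2a1a*, held 8 integrin genes in at least 5% of the 157 cells. Of these 3 were called, *itgb5*, *itgb8* and *itga4*, where the rule called 6.53% of all tested features. The collagen receptor gene *itga10*, which in mammals is known for cartilage, was in 20 cells at 52.6 CPM (33.7 to 78.2) and was not called. The genes *itga9* and *itga5* were at 52.6 and 46.0 CPM, *itgav* at 43.8 CPM and *itgb1a* at 26.3 CPM.

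The vitronectin receptor gene *itgb5* was at 43.8 CPM (26.7 to 67.6), in 12.7% of cells. The gene *itgb8*, whose product pairs with alphav and in mammals activates TGF-beta, was at 28.5 CPM (15.2 to 48.7), on 13 UMIs in 12 cells. Set against the other cells of the same library alone, *itgb5* remained called (log2 fold 1.58), but *itgb8* did not (0.36). The cells compared then include 31 pre-osteoblast-like cells, in which *itgb8* was at 38.3 CPM. The 2 chondrocyte clusters, led by *ucmab* (81 cells) and *matn1* (76 cells), did not differ beyond counting error in any of the 6 members compared. For *itgb8* the ratio of the *ucmab* to the *matn1* cluster was 3.28 (0.845 to 18.6) and for *itga1* it was 0.328 (0.0572 to 1.32). The gene *itga1*, a collagen and laminin receptor, was at 39.7 CPM in the *matn1* cluster (18.2 to 75.4), on 9 UMIs in 4 cells, which passed the rule for a call in that cluster alone. No UMI of *itgb4*, *itgb2* or *itgb1b.2* was found among the 157 cells, a result compatible with up to 1.91% of cells holding a UMI of each, at this depth.

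Among genes listed as integrin ligands, the chondrocyte-like cells held *fn1b*, a fibronectin gene, at 1390 CPM against 82.0 CPM in other cells, and *tgfbi* at 289 CPM against 59.6 CPM. In all, 4 of 13 RGD-type ligands were called there. Of the latent TGF-beta list 2 of 6 genes were called, *tgfb1a* at 1130 CPM against 71.8 CPM and *tgfb2* at 199 CPM against 32.7 CPM.

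Superficial chondrocyte-like cells, which express the lubricin gene *prg4b*, held 10 integrin genes in at least 5% of the 105 cells. Of these 4 were called, *itga9*, *itgb5*, *itga4* and *itgb1a*, where the rule called 5.28% of all tested features. The tenascin receptor gene *itga9* was in 51 cells at 267 CPM (217 to 326). This was 3.81 times the level of the *glis1b* cluster, the next in order (2.98 to 4.83), and 5.09 times that of the chondrocyte-like cells (3.23 to 8.32). The beta1 gene *itgb1a* was at 154 CPM (117 to 200.4), 1.72 times the level of the ligamentocyte-like cells (1.23 to 2.36). The fibronectin receptor gene *itga5* was in 43.8% of cells at 193 CPM (150.4 to 244), a level which did not differ beyond counting error from that of the *glis1b* cluster (ratio of *glis1b* to superficial cells 1.09, interval 0.853 to 1.41). It fell just short of the 2-fold limit and was not called, since its level in all other cells is also high.

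For *itgb5* and *itga4*, the superficial and the other chondrocyte-like cells did not differ beyond counting error. The gene *itgb5* was at 74.4 CPM (49.0 to 108.3), a ratio to the chondrocyte-like cells of 1.70 (0.918 to 3.196). The gene *itga4*, whose alpha4 chain binds VCAM-1 and fibronectin, was at 46.9 CPM on 17 UMIs, a ratio of 1.78 (0.803 to 4.09). The pair diverged for *itga6b*, with 47 UMIs in superficial cells (129.5 CPM) and 1 UMI in chondrocyte-like cells (2.2 CPM), and for *itgb8*, with 0 and 13 UMIs, respectively. These contrasts run between the libraries, so the sort and the cell type cannot be told apart. The superficial cells also held *itgb4* in 28 of 105 cells at 93.7 CPM (64.9 to 131), which is 4.14% of the epithelial level (2.87 to 5.79). The same 6 epithelial markers, without *krt91* and *krt4*, lay between 0.504% and 2.85% there. The highest of these was *tp63* on 2 UMIs, and its interval (0.345 to 10.3) includes the value of *itgb4*. In a comparison chosen after these values were seen, epithelial-like cells were taken out of the other cells. In it *itgb4* and *itgav* were called in the superficial cells as well (2.56-fold and 2.46-fold).

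The talin gene *tln1*, whose product switches integrins on, was called in the superficial cells at 160 CPM against 46.1 CPM, as was the kindlin gene *fermt2* at 68.9 CPM against 26.4 CPM, 2 of 5 activators tested. The tetraspanin gene *cd151*, whose product binds laminin-binding integrins, was at 488 CPM against 48.3 CPM. Of the ligands, *fn1b* was at 570.5 CPM against 107 CPM and *mfge8b* at 105 CPM against 10.3 CPM, 4 of 13 called. Of 11 listed collagens, which hold collagen VI genes beside fibrillar collagens, 0 were called there.

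Osteoblast-like cells were set apart by a single integrin, the collagen receptor gene *itga10*. It was the only one of the 33 genes called in the 191 cells, where the rule called 1.4% of all tested features. It was found in 102 cells (53.4%, interval 46.1 to 60.6) at 170.4 CPM (148 to 195). This level was 1.79 times that of the dermal fibroblast-like cells, the next in order (1.44 to 2.22), 2.58 times that of the pre-osteoblast-like cells (1.69 to 4.11) and 3.24 times that of the chondrocyte-like cells (2.12 to 5.17). Both libraries hold osteoblast-like cells, and *itga10* was at 142 CPM in the 15 cells of the *sox10*:DsRed-enriched library and at 174 CPM in the 176 cells of the other, a ratio of 0.817 (0.5005 to 1.27). Within the *sox10*:DsRed-enriched library, where the sort was the same for both, the osteoblast-like cells exceeded the chondrocyte-like cells 3.00-fold (1.57 to 5.74).

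Otherwise the osteoblast-like cells held *itga6b* at 52.5 CPM, *itgb1a* at 47.0 CPM, *itgav* at 22.3 CPM, *itgb4* at 23.1 CPM and *itgb5* at 18.3 CPM, which makes 6 genes in at least 5% of cells. This *itgb4* level was 1.02% of the epithelial level (0.683 to 1.47). The 6 epithelial markers, without *krt91* and *krt4*, lay between 0.390% (*krt5*) and 0.857% (*epcam*, interval 0.609 to 1.17) there. The part of free RNA was not tested. The fibronectin and tenascin receptor genes were low in them, *itga5* at 5.6 CPM and *itga9* at 3.2 CPM. Bone matrix collagens that alpha10 and its relatives can bind were called in the same cells. Among them *col1a1a* was at 23531 CPM against 2440 CPM in other cells and *col5a2b* at 357 CPM against 2.43 CPM. Of the 11 listed collagens 4 were called in all, while the other 7 were at least 2-fold lower. Of 13 RGD-type ligands 2 were called, *mfge8a* at 117 CPM against 29.7 CPM and *spp1*, which encodes osteopontin, at 3809 CPM against 1339 CPM, and 10 were at least 2-fold lower.

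Pre-osteoblast-like cells, the *mmp9* and *mmp13b* cells of the joint, held 8 integrin genes in at least 5% of 68 cells, and 2 were called, *itgb8* and *itgb3b*, where the rule called 2.52% of all tested features. The gene *itgb8* was at 49.6 CPM (29.4 to 78.3), on 18 UMIs in 9 cells, 10.4 times its level in osteoblast-like cells (3.94 to 31.9). It did not differ from the chondrocyte-like cells beyond counting error (ratio 1.74, interval 0.806 to 3.86). The gene *itgb3b*, whose beta3 chain reads RGD motifs with alphav and is known in mammals for osteoclasts and platelets, was at 46.8 CPM (27.3 to 74.9), 9.80 times its level in osteoblast-like cells (3.69 to 30.3). The alphav gene *itgav* was at 55.1 CPM (33.6 to 85.0), and *itga10* at 66.1 CPM was found in 18 cells.

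The 31 cells of the *sox10*:DsRed-enriched library and the 37 of the other did not give the same values. The level of *itgb3b* was 84.2 CPM in the former and 25.8 CPM in the latter, a ratio of 3.26 (1.11 to 10.7), and among *trps1*:eGFP-enriched cells alone its call was lost (log2 fold 0.50). For *itgb8* the levels were 38.3 and 55.9 CPM, which overlap (ratio 0.685, interval 0.191 to 2.05), and its call was lost among *sox10*:DsRed-enriched cells alone (log2 fold 0.55). Leukocyte markers differed between the libraries as well. The gene *laptm5* was in 12 of the 31 cells (559 CPM) and in 2 of the 37 (30.1 CPM). Also higher in the former were *cd74b*, in 5 cells against 2, and *coro1a*, in 6 cells against 1. Counts of cells were too small to compare for the other markers. For *cd74a* the former held 19 UMIs in 2 cells and the latter 1 UMI in 1 cell. The genes *mpeg1.1* and *ptprc* had 2 UMIs each and only in the former, and *lcp1*, *spi1b*, *mpx* and *lyz* had 1 or 2 UMIs each and only in the latter. All 10 leukocyte markers had a UMI in these 68 cells, with a summed level of 388 CPM against 13.1 to 162.6 CPM in the other skeletal populations. Of the 13 cells with *itgb3b*, 2 held *laptm5*, and of the 9 cells with *itgb8* none did, against 21.8% and 23.7% of the cells without each gene. All 13 and all 9 held *mmp13b*, against 76.4% and 78.0% of the cells without. The cells with *itgb3b* were also deeper (median 6170 against 3700 UMIs), and *mmp13b* is a marker that named the population. At these counts, the cells that hold the 2 integrin genes cannot be told apart from the others. Of 6 osteoclast genes, a list chosen after the data were seen, 4 had a UMI (summed 113 CPM), nearly all of it *ctsk* in 20 of the 68 cells (101.9 CPM), and *acp5a* and *ocstamp* were at 0. This sum was not particular to these cells. It was 99.5 CPM in osteoblast-like cells and ran from 0 CPM in glia-like to 308 CPM in dermal fibroblast-like cells. Unlike *itgb3b*, *ctsk* was lower in the *sox10*:DsRed-enriched cells (2 of 31) than in the others (18 of 37). Among ligands, *spp1* was at 48866 CPM against 483 CPM. Of the latent TGF-beta list, *tgfb2* was called at 275 CPM against 32.0 CPM.

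Ligamentocyte-like cells, which express *tnmd* and *scxa*, were set apart by *itga11a*, the gene of the alpha11 chain that binds fibrillar collagen and in mice is needed in the periodontal ligament. It was the only one of the 33 genes called in the 370 cells, where the rule called 1.22% of all tested features. It was in 115 cells (31.1%, interval 26.4 to 36.1) at 122 CPM (105 to 141). The next levels were those of the *ctslb* cluster at 49.6 CPM, 2.46 times lower (ratio interval 1.69 to 3.68), the *fgl1* cluster at 42.5 CPM and the dermal fibroblast-like cells at 38.4 CPM, and these 3 did not differ among themselves beyond their intervals. Skeletal cells held nearly no *itga11a*, 1 UMI in chondrocyte-like cells, 1 in osteoblast-like cells, 0 in pre-osteoblast-like cells and 3 in superficial cells. Its paralog *itga11b* had 21 UMIs in all kept cells, 16 of them in ligamentocyte-like cells.

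The beta1 gene *itgb1a* was in 27.3% of ligamentocyte-like cells at 89.98 CPM (75.4 to 107), the second highest level after the superficial chondrocytes. It was found in 38.3% of the cells with *itga11a* and in 22.4% of those without, but the former were deeper (median 4835 against 3157 UMIs). After thinning to 1000 UMIs the shares were 2.94% and 9.82%, so the data do not show that both genes favour the same cells. The collagen receptor gene *itga10* was at 45.0 CPM (34.9 to 57.1), at a ratio of 1.17 for chondrocyte-like to ligamentocyte-like cells (0.701 to 1.89). Of the 11 listed collagens 6 were called in ligamentocyte-like cells, with *col1a1a* at 10341 CPM against 3395 CPM in other cells. Of the RGD-type ligands 6 of 13 were called, with *thbs4a* at 502 CPM against 6.68 CPM and *tgfbi* at 188 CPM against 54.1 CPM. Of these, *thbs4a* and *thbs4b* are also markers that named the cells.

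**Figure D3:**
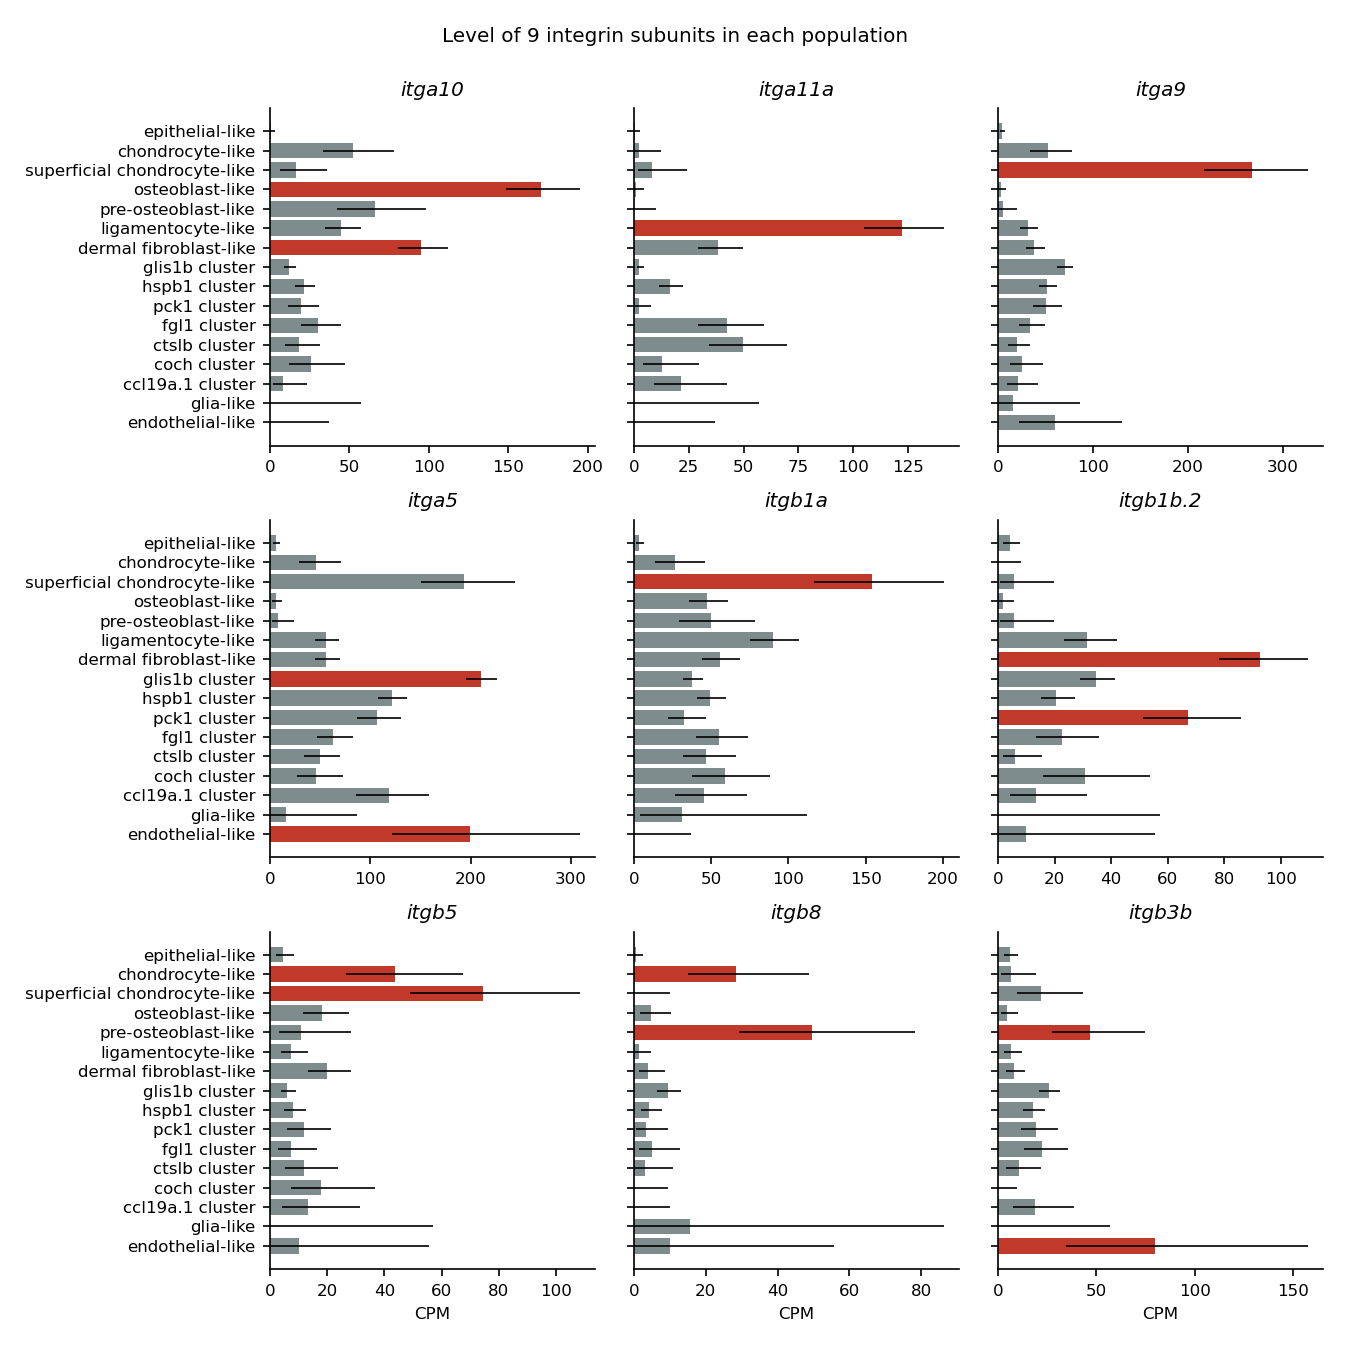
Level of 9 integrin genes in the 16 populations, in CPM, with a separate horizontal axis for each gene that starts at 0. Bars are the level over all cells of a population, lines are exact 95% Poisson intervals for counting error only, and red bars are called. The gene *itga10* stands highest in osteoblast-like cells (170.4 CPM), *itga11a* in ligamentocyte-like cells (122 CPM), *itga9* in superficial chondrocyte-like cells (267 CPM) and *itga5* in the *glis1b* cluster (210.4 CPM).

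Dermal fibroblast-like cells held 11 integrin genes in at least 5% of 346 cells, and 2 were called, *itgb1b.2* and *itga10*, where the rule called 2.26% of all tested features. The beta1 gene *itgb1b.2* was at 92.7 CPM (77.9 to 109.3), in 24.9% of cells, 1.38 times the level of the *pck1* cluster (1.02 to 1.90). The gene *itga10* was at 95.3 CPM (80.4 to 112), in 29.5% of cells. Its call was lost when the cells were clustered on 20 components, where its log2 fold was 0.46 in place of 1.31. The gene *itga6b* was at 98.0 CPM (82.8 to 115) and *itga11a* at 38.4 CPM (29.1 to 49.6). Of the 11 listed collagens 4 were called here, among them *col6a1*, *col6a3* and *col6a2* of collagen VI, which is not fibrillar. The gene *col6a1* was at 662 CPM against 202 CPM.

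The *glis1b* cluster, the largest with 976 cells, had 1 called integrin, the fibronectin receptor gene *itga5*, where the rule called 0.859% of all tested features. It was in 43.3% of these cells (40.2 to 46.5) at 210.4 CPM (196 to 226), 1.73 times the level of the *hspb1* cluster (1.51 to 1.99). The levels of the superficial chondrocyte-like cells and of the endothelial-like cells (199.7 CPM, ratio of *glis1b* to endothelial-like 1.05, interval 0.677 to 1.73) did not differ from it beyond counting error. The 691 cells of that cluster held 11 integrin genes in at least 5% of cells and none was called (background 0.416%). The *pck1* cluster had 1 called gene, *itgb1b.2* at 67.0 CPM (51.4 to 85.9), against a background of 2.02%, and this call was lost with epithelial-like cells taken out of the cells compared (1.95-fold). No integrin was called in the *fgl1* cluster (background 0.761%), the *ctslb* cluster (1.35%), the *coch* cluster (2.69%) or the *ccl19a.1* cluster (1.85%). In these last 4, between 7 and 11 integrin genes were in at least 5% of cells, with *itga5* between 46.0 and 118 CPM and *itgb1a* between 45.6 and 58.8 CPM. In the *ccl19a.1* cluster 5 of 13 basement membrane genes were called, among them *lama4* at 83.2 CPM against 25.1 CPM.

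The gene *itgb2*, which in mammals is a leukocyte gene, was in 317 of the 2261 cells of the dermal fibroblast-like population and the *glis1b*, *hspb1* and *pck1* clusters, at 39.4 to 50.8 CPM, and the *pck1* cluster and the dermal fibroblast-like cells did not differ beyond counting error (ratio 1.04, interval 0.704 to 1.52). The pan-leukocyte genes *ptprc* and *lcp1* were at 0 in all 2261 cells. Both were rare everywhere, with 1 UMI each in epithelial-like cells, 2 UMIs each in pre-osteoblast-like cells and none in other populations. No leukocyte population was present to show how often they are captured at this depth. Of the 317 cells with *itgb2* none held *ptprc*, *lcp1*, *spi1b*, *mpeg1.1*, *mpx* or *laptm5*, while 4 held *coro1a* (1.26%, against 1.29% of the cells without *itgb2*). A further 3 markers were found in them, *cd74a* in 21 cells (6.62%, against 4.17%), *cd74b* in 19 (5.99%, against 4.94%) and *lyz* in 1 (0.315%, against 0.0514%). Over these 4 populations 4 to 6 of the 10 leukocyte markers had a UMI, with summed levels of 26.4 to 128 CPM. Elsewhere *itgb2* was at 43.0 CPM in the *ccl19a.1* cluster, 77.4 CPM in glia-like cells, 3.2 CPM in osteoblast-like and 1.4 CPM in epithelial-like cells. The partners of beta2 known from leukocytes were hardly seen, with 3 UMIs of *itgam* in all kept cells.

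The 36 glia-like cells, from the *sox10*:DsRed-enriched library but for 1, held 5 integrin genes in at least 5% of cells, and *itgb2* was called (background 8.58%) on 5 UMIs in 5 cells, at 77.4 CPM (25.1 to 181). The gene *itgb4*, known in mammals from Schwann cells, also had 5 UMIs in 5 cells. In the 25 endothelial-like cells 6 integrin genes were called (background 8.1%), on 2 to 20 UMIs each. The clearest were *itga5*, in 10 cells at 199.7 CPM (122 to 308), and *itgb3b*, in 6 cells at 79.9 CPM (34.5 to 157). The other 4 (*itga1*, *itga2.3*, *itgb1b.1* and *itgb6*) were in 2 cells each. For *itga5* the call was lost with epithelial-like cells taken out of the cells compared (1.80-fold).

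The copies of the beta1 gene differed in place. Of the 4, *itgb1a* gave 90.3% of beta1 UMIs in superficial chondrocyte-like cells (80.1 to 96.4), 90.8% in osteoblast-like cells (81.0 to 96.5) and 72.4% in ligamentocyte-like cells (65.4 to 78.7). In dermal fibroblast-like cells *itgb1b.2* gave 61.7% (55.0 to 68.0) and in the *pck1* cluster 66.0% (55.5 to 75.4). The split was different again in epithelial-like cells. There *itgb1b.1* gave 69.7% (58.1 to 79.8) of 76 beta1 UMIs, *itgb1a* gave 9.21% (3.78 to 18.1), and the beta1 genes together reached 35.2 CPM against 150.2 CPM in dermal fibroblast-like cells. The fourth gene, *itgb1b*, gave 48 UMIs in all kept cells. Because *itgb1b*, *itgb1b.2* and *itgb1b.1* lie side by side in the GRCz12tu annotation and reads that fit several places are not counted, UMIs may be missing from any of them and the split among the 3 is uncertain.

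The beta3 copies divided in the same manner. In epithelial-like cells *itgb3a* gave 92.0% of 162 beta3 UMIs (86.7 to 95.7). In the *glis1b* cluster *itgb3b* gave 97.9% of 95 and in the pre-osteoblast-like cells 94.4% of 18. In all other cells *itgb3a* had 9 UMIs in the *trps1*:eGFP-enriched and 2 in the *sox10*:DsRed-enriched library. The alpha11 copies did not divide in this way, as both were highest in ligamentocyte-like cells. Of the alpha11 UMIs *itga11a* gave 94.7% of 397, and for alpha6, *itga6b* gave 99.8% of 4161 UMIs.

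**Figure D4:**
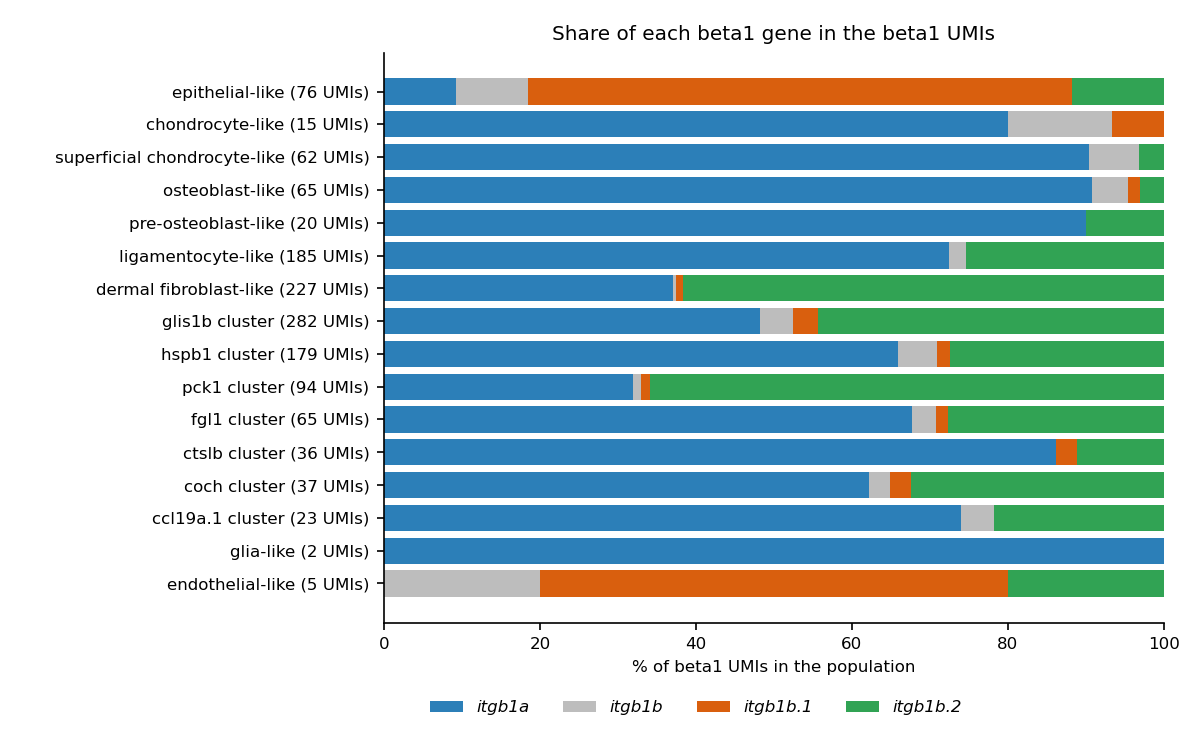
Share of each of the 4 beta1 genes in the beta1 UMIs of a population, in percent, with the number of beta1 UMIs in brackets. Blue is *itgb1a*, grey is *itgb1b*, orange is *itgb1b.1* and green is *itgb1b.2*. Blue fills most of the bar in skeletal cells (90.8% in osteoblast-like cells), green in dermal fibroblast-like cells (61.7%) and orange in epithelial-like cells (69.7%), and the bars of glia-like and endothelial-like cells rest on 2 and 5 UMIs.

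Of the 19 genes with fewer than 100 UMIs, 6 were in at least 5% of the cells of some population and are named above (*itga1*, *itga2.3*, *itga3a*, *itga4*, *itgb1b.1* and *itgb6*). Of the others, *itgb1b*, *itga2.2*, *itga11b* and *itga8* had 48, 24, 21 and 10 UMIs, with *itga2.2*, a collagen receptor gene, at 8.3 CPM in epithelial-like cells and at 1.1 CPM or less elsewhere. The remaining 9 had fewer than 10 UMIs, among them the leukocyte subunit genes *itgam*, *itgb7*, *itgae.1* and *itgae.2*. The gene *itga2b*, known from platelets, was found in 0 of 4161 cells, so that up to 0.0721% of cells with a UMI remains possible.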

How the data were processed

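Cells were captured with 10x Genomics 3' v2 chemistry, and the authors aligned and counted the reads with Cell Ranger 3.0.0 against the GRCz11 genome, the Lawson annotation and the 2 reporter sequences. The deposited values are raw UMI counts per feature and barcode. Barcodes with 500 to 2000 genes and at most 5% of counts on 12 mitochondrial features were kept. A doublet caller marked 2 of 462 and 1 of 4876 barcodes, too few to have worked, so the upper gene limit was the filter on doublets. Clusters were rebuilt in Seurat 5.3.0 (R 4.3.3) after the settings of the study, with 2000 variable features, 38 of 50 components and resolution 0.9, and with 0.2 and 0.5 inside the osteoblast and chondrocyte clusters. A first clustering set the epithelial-like and endothelial-like cells apart, and a second grouped the remaining cells. Integrin genes were removed from the 2000 variable features, 8 in the first clustering and 5 in the second. A population was named where at least 3 markers were in 5% of its cells and 2-fold higher, so names may differ from those of the study.

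Levels and exact intervals were computed in Python 3.11.15 (numpy 2.4.6, scipy 1.17.1, scanpy 1.11.5) and tested on simulated data. Where cells were thinned, 1000 UMIs were drawn from each and shallower cells were left out. Integrins with at least 100 UMIs are given in full, others by counts, and for each list of ligands or partners up to 3 called genes with the highest fold. Members and lists were chosen with earlier results of these data known. Sequences are not shown, as no genome of this build was used here.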

Additional observations from a re-analysis of the deposited data

Results flagged for a closer look

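The 1177 barcodes left out by the limits on genes and mitochondrial RNA were outside every comparison above, and 2 integrin genes with at least 10 UMIs in them stood 1.5-fold or more above the kept cells after 10 CPM had been added, with the whole interval above. Below that fold, the intervals of *itgb1a* (63.3 CPM against 45.6 CPM in kept cells) and *itgb6* (11.3 against 4.91 CPM) also lay above, as did that of *itga11b* on 7 UMIs (4.39 against 1.24 CPM). The gene *itga9* was at 79.6 CPM in the left-out barcodes (66.3 to 94.7) against 43.1 CPM in the kept cells. Of its 127 UMIs there, 99 were in barcodes under 500 genes (102 CPM), 14 were in the 15 barcodes of 500 to 2000 genes (614 CPM) and 14 were in 48 barcodes over 2000 genes (23.2 CPM), and 124 came from the *trps1*:eGFP-enriched library. The gene *itga1* was at 13.2 CPM (8.15 to 20.1) against 2.60 CPM in the kept cells. Its 21 UMIs were all in barcodes under 500 genes, and 16 of them came from the *sox10*:DsRed-enriched library. No control sample exists for these barcodes, and the cell types in them were not determined.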

How the results depend on the processing

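With 1 library per sort, intervals cover counting error only and no difference was tested between animals. No paired analysis was possible because each group has 1 library and no result comes from a test. Under 20 alternatives, 240 of 263 log2 folds of the 20 called pairs followed stayed at 1 or more, 23 fell below 1 and 0 fell below 0. The ranges were 4.82 to 6.10 for *itgb4* in epithelial-like cells, 1.30 to 2.60 for *itga10* in osteoblast-like cells, 1.46 to 3.18 for *itga11a* in ligamentocyte-like cells and 1.85 to 2.77 for *itga9* in superficial chondrocyte-like cells. Taking epithelial-like cells out of the other cells, chosen after seeing the data, kept 20 of the 22 pairs outside the epithelial-like cells and added 5, *itgav* and *itgb4* in superficial chondrocyte-like (2.46-fold and 2.56-fold) and glia-like cells (2.25-fold and 2.09-fold) and *itgav* in pre-osteoblast-like cells (2.08-fold).

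Counts of genes moved more, and the cause was not tested. With 2 UMIs needed per cell, the genes found fell from 7 to 4 in epithelial-like, from 8 to 0 in chondrocyte-like, from 10 to 4 in superficial chondrocyte-like, from 6 to 2 in osteoblast-like, from 8 to 2 in pre-osteoblast-like, from 9 to 2 in ligamentocyte-like and from 11 to 3 in dermal fibroblast-like cells. The genes called fell to 4 in epithelial-like, 0 in chondrocyte-like, 2 in superficial chondrocyte-like and 1 in pre-osteoblast-like cells, and the called pairs fell from 29 to 14. Thinned to 1000 UMIs, the genes found were 3 in chondrocyte-like, 2 in osteoblast-like, 2 in pre-osteoblast-like, 2 in ligamentocyte-like and 6 in dermal fibroblast-like cells, with 0 called in pre-osteoblast-like and 2 in ligamentocyte-like cells. At 2% of cells the genes found were 14 in epithelial-like, 11 in osteoblast-like and 13 in pre-osteoblast-like cells, with 2 called in ligamentocyte-like cells. At 10% of cells 5 were found and 1 was called in chondrocyte-like cells. With 50 CPM added, 3 were called in epithelial-like, 0 in chondrocyte-like, 0 in pre-osteoblast-like and 0 in dermal fibroblast-like cells, 9 pairs in all. At 4-fold, 4 were called in epithelial-like, 0 in chondrocyte-like, 2 in superficial chondrocyte-like, 0 in pre-osteoblast-like and 0 in dermal fibroblast-like cells, 8 pairs in all. At 1.5-fold, 4 were called in pre-osteoblast-like, 2 in ligamentocyte-like and 4 in dermal fibroblast-like cells. With cells of the *sox10*:DsRed-enriched or the *trps1*:eGFP-enriched library only, 1 was called in pre-osteoblast-like cells each time. In ligamentocyte-like cells 2 genes were called at resolution 1.2, with no upper limit of genes, with a mitochondrial limit of 10%, with the top 5% of doublet scores left out and with 1 CPM added. With 20 components 1 was called in dermal fibroblast-like cells. Epithelial-like cells with both *itga6b* and *itgb4* were 84.4%, and 76.8% with a minimum of 200 genes, 51.9% after thinning and 76.5% with 2 UMIs needed.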
